A study of Mus musculus with 8 samples.

Results

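The genes described here encode the proteins of the mitochondrial ribosome. They are the protein-coding mouse genes whose symbol begins with Mrpl (large subunit) or Mrps (small subunit) followed by a number. The rule uses symbols only, though it was written with earlier results of these data known. Of 20189 genes in the table, 77 met it, 48 with a large subunit symbol and 29 with a small subunit symbol. They were measured in 4T1 cells, a mouse mammary carcinoma line of labelled genotype WT. The cells grew in DMEM with serum, to which acetate (5 mM) or, as vehicle, water was given for 48 hours, and mRNA was sequenced from 4 libraries of each group. The study sequenced these cells to ask how a larger supply of acetyl-CoA, which cells can make from acetate, affects metastasis. The 8 libraries formed 4 pairs of 1 vehicle and 1 acetate library, numbered 1 to 4, and both libraries of a pair carry the same code in the labels. The labels do not say how the cultures behind the 4 pairs were separated, so p-values measure the spread between these pairs of libraries. All cells are of 1 line, so the libraries sample no other tumour.

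Mitochondria keep their own ribosome, which makes the few respiratory chain subunits encoded in mitochondrial DNA. Its RNAs are transcribed inside the organelle, but all of its proteins are encoded in the nucleus, made in the cytosol and imported. Some of the proteins have a counterpart in bacterial ribosomes, and the rest were added during the evolution of mitochondria. The small subunit reads the messenger RNA, and the large subunit joins amino acids and passes the new chain towards the inner membrane.

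Values are normalised reads, in units of which every library holds 20000000 in total. Libraries held between 19.9 M and 29.31 M reads (M, mega), as recovered from the values, and all 77 genes were above 0 in all 8 libraries, with never fewer than 141 reads. The 5 epithelial marker genes examined summed to between 42130.1 and 60637 units in every library. Of 8 marker genes for leukocytes, endothelium, mural cells and fat cells, 4 were in the table (Ptprc, Pecam1, Cdh5 and Pdgfrb), and they summed to 6.11 to 26.6 units in vehicle and 12.6 to 41.0 units in acetate. Of these Pdgfrb, a gene of mural and other mesenchymal cells, rose: its vehicle libraries had 0 to 21.2 units and its acetate libraries 3.14 to 33.1. The part of such cells in the results below was not tested. In a culture, less RNA of a gene per cell and fewer cells that carry it cannot be told apart. Of the epithelial markers, the keratin Krt19 rose by 0.40 on the log2 scale and Cdh1 by 0.15. The keratins Krt8 and Krt18 had log2 changes of -0.06 and -0.05, and Epcam had one of 0.07.

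Most of the 77 genes were slightly lower with acetate, but 1 passed the test on its own. The log2 change, acetate minus vehicle, was negative for 62 genes (80.5%) and positive for 15, whereas 45.0% of all 20189 genes had a negative change. The median log2 change over the 77 genes was -0.08 (-5.29%), and over all genes it was 0.02. Single changes ran from -0.18 for Mrpl12 to 0.16 for Mrpl14, and standard errors from 0.0292 to 0.0922 with a median of 0.0451. In the limma fit with the pair as a block, adjusted over all genes at a threshold of 0.05, 1 of 77 members fell and 0 rose. The background was 2.65% of all genes called lower and 5.99% called higher. Among the 9863 genes whose mean was at least that of the lowest member (138 units), 5.26% were called lower, against 1.3% of members. With edgeR or median-of-ratios scaling the share of members was above that of all genes. For these settings the share of the 9863 genes was not computed. At an unadjusted p under 0.05, 24 members were lower and 1 was higher, against 8.65% and 13.7% of all genes. Of the 9863 genes, 1530 were lower and 1855 higher at that limit. Among them 50.4% had a negative change, and their median log2 change was -0.001.

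**Figure D1:**
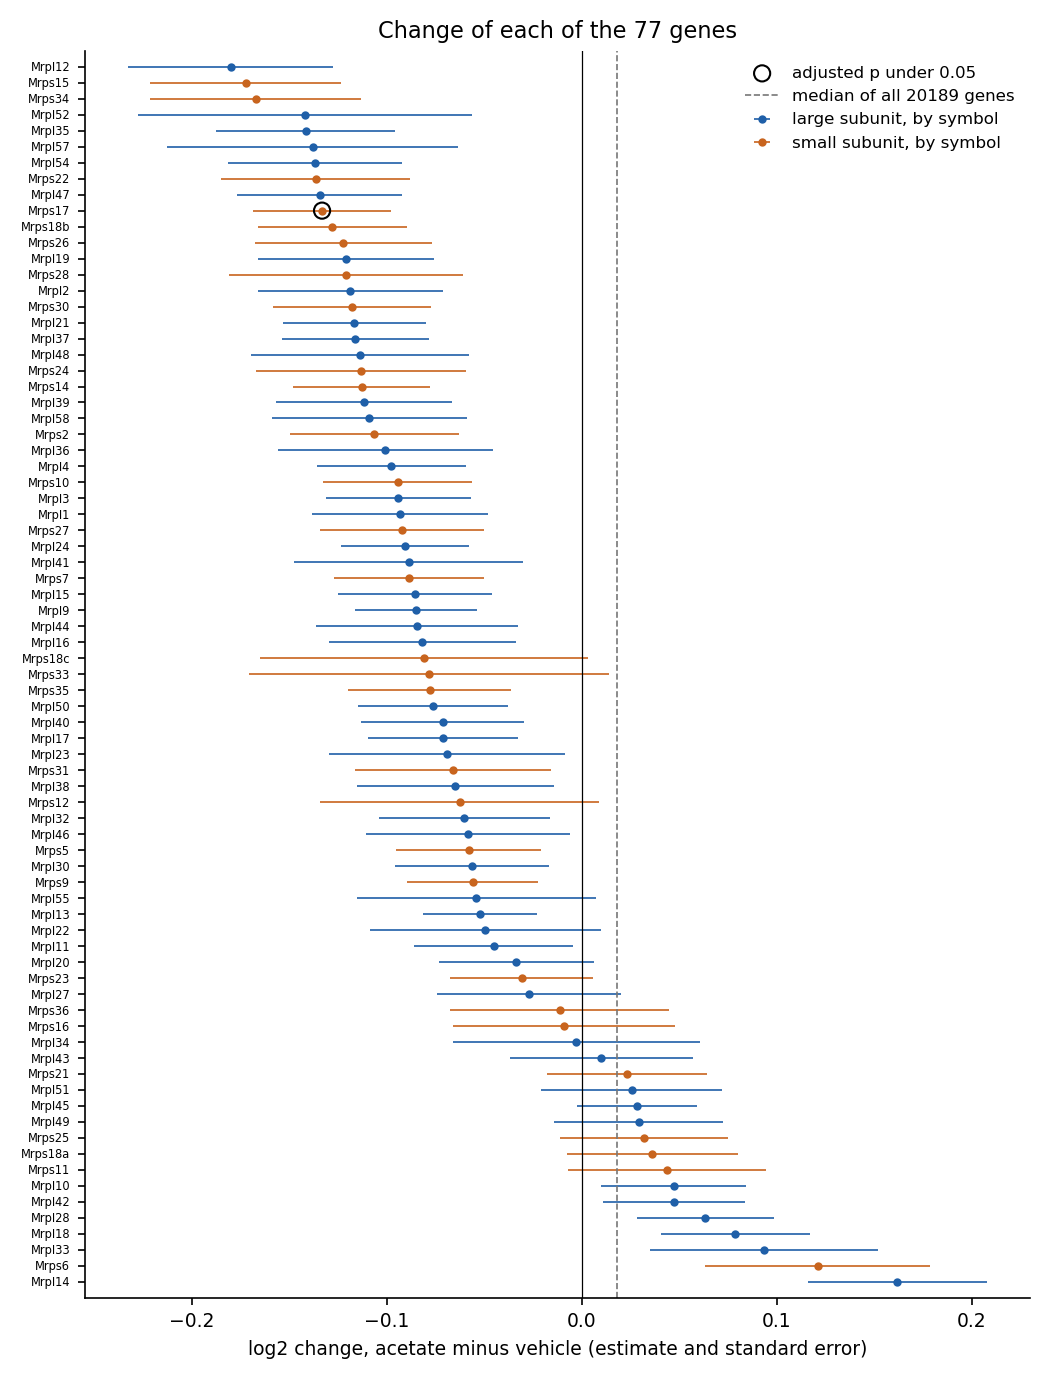
Log2 change from vehicle to acetate for each of the 77 genes, with the standard error of the limma fit, in order of size and coloured by the subunit in the symbol. The ring marks Mrps17, which passed the threshold, and the dashed line is the median of all 20189 genes at 0.02; 62 of the 77 points lie left of 0.

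The direction was the same in many pairs. Of the 77 genes, 32 (41.6%) were lower with acetate in 4 of 4 pairs, against 11.4% of all genes and 18.6% of the 9863 genes of similar or higher level. A further 22 were lower in 3 pairs, 12 in 2, 9 in 1 and 2 in none. Those 2 were Mrpl14 and Mrpl45, the latter a protein that holds the ribosome at the inner membrane. Thus 2.6% of members were higher in every pair, against 16.7% of all genes and 21.4% of the 9863 genes. The count takes the sign alone, however small the difference: Mrps35 in pair 1 had 696.9 units with acetate and 697.0 with vehicle.

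The size of the difference was not the same in each pair. The median log2 change of the 77 genes was -0.03 in pair 1, -0.06 in pair 2, -0.07 in pair 3 and -0.11 in pair 4. In the same pairs 49, 53, 55 and 70 of the 77 genes were lower. The medians of all genes were 0.02, 0.00, 0.00 and 0.03. All 4 pairs thus went in the same direction, with pair 1 nearest to 0 and pair 4 farthest from it.

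**Figure D2:**
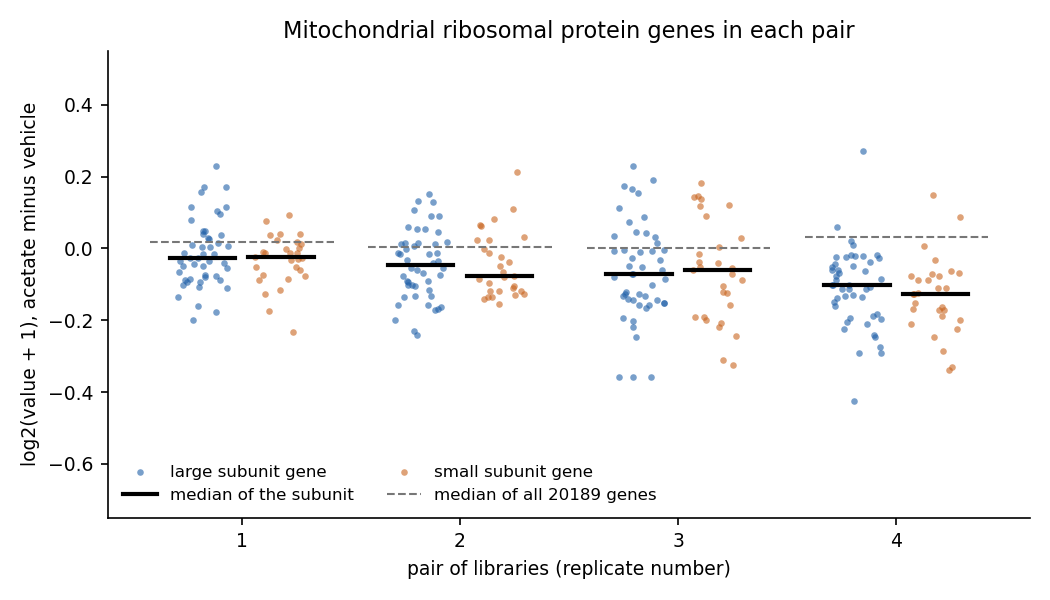
Difference in log2(value + 1), acetate minus vehicle, for each gene in each of the 4 pairs, with large subunit genes in blue and small subunit genes in orange. Black bars are the medians of each subunit, which lie between -0.03 and -0.13, and dashed lines the medians of all genes.

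The large and the small subunit did not separate in the median change of their genes. Of 48 large subunit genes 38 had a negative change (79.2%), and of 29 small subunit genes 24 had one (82.8%). The median log2 change was -0.07 for the large and -0.08 for the small subunit. Lower in 4 of 4 pairs were 20 of 48 large subunit genes (41.7%) and 12 of 29 small subunit genes (41.4%). The median of the large subunit minus that of the small subunit was -0.002, 0.03, -0.01 and 0.025 in pairs 1 to 4, with a mean of 0.011 ± 0.02 (SD, n = 4 pairs). This difference changed sign between pairs and was smaller than its spread over them. No test was made on it, since members of a subunit are not replicates. In the large subunit limma called 0 genes, with 13 lower and 1 higher at an unadjusted p under 0.05, while edgeR called 6 lower and DESeq2 1. In the small subunit limma called 1 gene lower, with 11 lower and 0 higher at an unadjusted p under 0.05, while edgeR called 5 lower and DESeq2 0. Of all genes limma called 2.65% lower, with 8.65% lower and 13.7% higher at an unadjusted p under 0.05, and edgeR called 5.38% and DESeq2 3.83% lower.

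The symbols do not follow the structure in every case. The proteins of Mrps18a and Mrps30 sit in the large subunit in spite of their names, and that of Mrps36 belongs to the 2-oxoglutarate dehydrogenase complex of the tricarboxylic acid cycle. With these 3 genes placed by structure, the medians were -0.074 over 50 large subunit genes and -0.085 over 26 small subunit genes. By symbol they were -0.074 and -0.081. The 47 members with a bacterial counterpart had a median of -0.08, and the 30 without one, Mrps36 among them, had a median of -0.08 as well. Of the former 21 (44.7%) and of the latter 11 (36.7%) were lower in 4 of 4 pairs. These shares were not tested against each other.

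Mrps17, which encodes a small subunit protein with a bacterial counterpart that binds the ribosomal RNA, was the member that passed the threshold (chromosome 5, 129715497 to 129722556, plus strand, GRCm38). Its values in vehicle libraries 1 to 4 were 1525, 1206, 1279.7 and 953 units. In acetate libraries 1 to 4 they were 1472, 1099, 1148 and 836 units. The groups overlapped because pairs differed more than treatments did, but the acetate library was the lower one in each pair. The group means were 1241 ± 236 in vehicle and 1138 ± 261 in acetate (SD, n = 4). The log2 change was -0.13 with a standard error of 0.0356, or -8.81% (limma, adjusted p = 0.0401). Over 13 alternative settings the adjusted p ran from 0.0148 to 1.0, and 6 of them passed.

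Mrps15 and Mrpl12 had larger changes that lay just outside the threshold. Mrps15 encodes a small subunit protein whose bacterial counterpart binds ribosomal RNA early in assembly. Its vehicle values were 700.1, 607, 703 and 481 units and its acetate values 665, 552, 561 and 433 units, so that pair 3 differed most. The log2 change was -0.17 (SE 0.0489, limma adjusted p = 0.0522), and 5 of 13 alternatives passed. Mrpl12 encodes the flexible stalk protein that brings elongation factors to the ribosome. It had 2784, 1511, 1979 and 1101 units in vehicle and 2753, 1453, 1545 and 899.9 units in acetate. Pairs 3 and 4 carried most of the difference (-0.36 and -0.29 on the log2 scale), and pair 1 hardly any (-0.016). The log2 change over all pairs was -0.18 (SE 0.0527, limma adjusted p = 0.0585), with 5 of 13 alternatives past the threshold. Of the exon bases of Mrpl12, 13.1% are shared with a noncoding gene on the opposite strand.

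The stretches before the start of Mrps17 and Mrpl12 are shown because the former passed the test and the latter had the largest change, while their content of the motifs searched differs. The motifs were NRF1 (CGCANGCG), ETS as bound by GABPA (CCGGAAG) and YY1 (AAGATGG), factors known to control genes for mitochondrial proteins, each looked for on both strands. The sequences are from RefSeq, build GRCm38.p6, plus strand, in lower case with motif matches in capitals. They end just before the gene start in RefSeq or GENCODE, whichever comes first (RefSeq for Mrps17, GENCODE for Mrpl12), at chr5:129715247-129715449 for Mrps17 and chr11:120484387-120484612 for Mrpl12.
Mrps17: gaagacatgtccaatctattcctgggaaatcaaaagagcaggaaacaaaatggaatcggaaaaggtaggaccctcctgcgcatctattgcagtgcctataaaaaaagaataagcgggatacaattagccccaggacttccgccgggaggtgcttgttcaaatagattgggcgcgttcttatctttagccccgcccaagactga
Mrpl12: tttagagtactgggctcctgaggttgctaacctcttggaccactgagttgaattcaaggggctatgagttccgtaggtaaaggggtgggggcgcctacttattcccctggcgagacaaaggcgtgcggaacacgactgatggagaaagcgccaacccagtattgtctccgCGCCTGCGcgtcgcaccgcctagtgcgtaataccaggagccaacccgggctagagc
The stretch of Mrpl12 holds 1 match, to NRF1, and that of Mrps17 holds none. A match describes the letters and not binding by a factor.

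Among genes with a higher mean in acetate, Mrpl14 came closest to the threshold. Mrpl14 encodes a protein on the face of the large subunit that meets the small one (chromosome 17, 45686322 to 45698495, plus strand). It had 467, 551, 482 and 665 units in vehicle and 548, 603, 565 and 693 units in acetate, higher in each pair. The log2 change was 0.16 (SE 0.0459, limma adjusted p = 0.0515), and 1 of 13 alternatives passed. Its pairs also stood in another order than those of Mrps17, with pair 4 the highest and pair 1 the lowest. Of its exon bases, 11.2% are shared with Tmem63b on the opposite strand.

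Mrps6 and Mrpl18 had the next smallest p-values among genes with a higher mean. Mrps6, whose bacterial counterpart pairs with protein S18 on the small subunit, had 386, 272, 299 and 246 units in vehicle and 382, 315, 328 and 273 in acetate. It was higher in pairs 2, 3 and 4 and at nearly the same value in pair 1, with a log2 change of 0.12 (SE 0.0577, limma adjusted p = 0.245). Mrpl18, a protein of the central protuberance of the large subunit, had 2020.1, 1345, 1255 and 1249 units in vehicle and 2077, 1472, 1415 and 1225 in acetate. Its log2 change was 0.08 (SE 0.0382, limma adjusted p = 0.254), and pair 4 went the other way. Neither gene passed under any of the 13 alternatives.

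**Figure D3:**
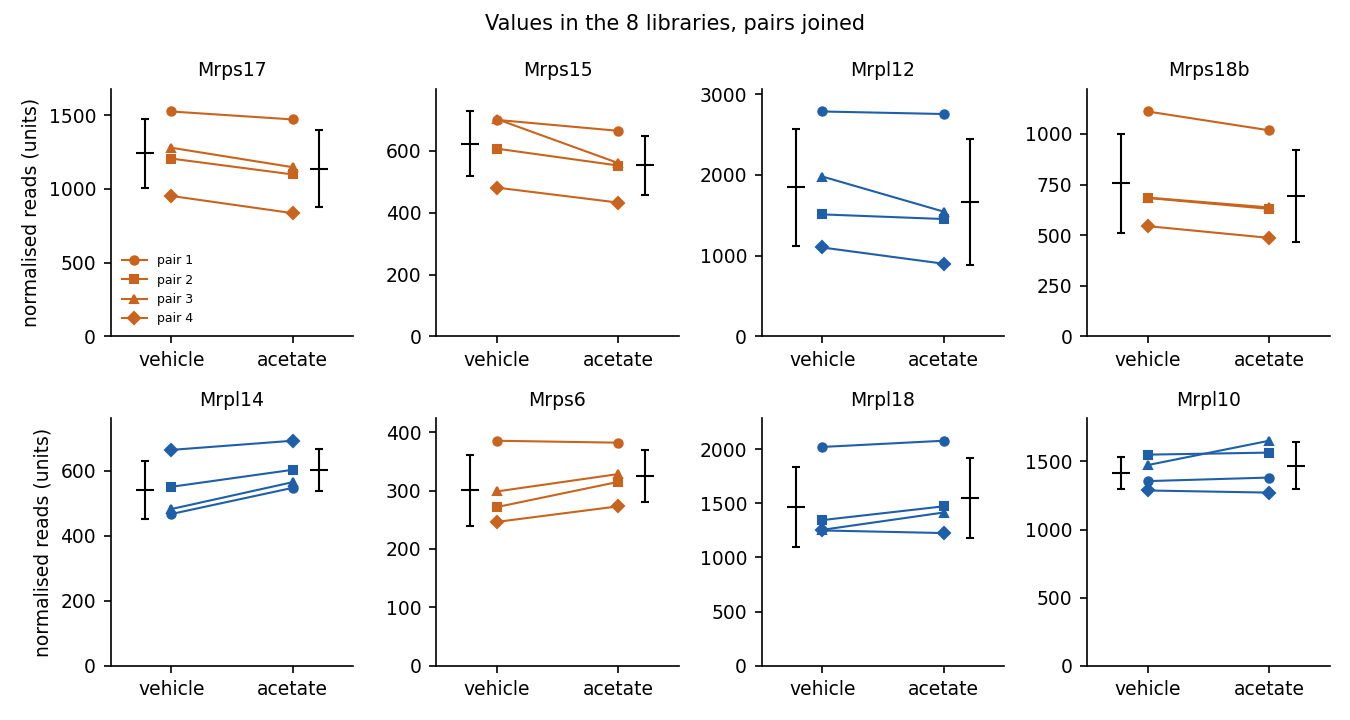
Normalised reads of 8 members in the 8 libraries, with the 2 libraries of a pair joined by a line and black bars for the group mean ± SD (n = 4). Lines slope down in all pairs for Mrps17, Mrps15, Mrpl12 and Mrps18b and up in all pairs for Mrpl14, while pairs are farther apart than treatments.

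Of the genes for the stalk proteins, none passed the threshold. The L1 stalk, which handles the outgoing tRNA, is formed with Mrpl1, and the factor-binding stalk has Mrpl12 carried by Mrpl10 next to Mrpl11. Mrpl1 had 759, 591, 587 and 471 units in vehicle and 734, 515, 547 and 463 in acetate. Its log2 change was -0.09 (SE 0.0451, limma adjusted p = 0.253). Mrpl10 had 1356, 1550.4, 1474 and 1287 units in vehicle and 1382, 1565, 1653 and 1271 in acetate. Its log2 change was 0.05 (SE 0.037, limma adjusted p = 0.506). Mrpl11 had a log2 change of -0.05 (-0.045 unrounded, SE 0.0407). Mrpl12 was lower in 4 pairs and Mrpl10, on which it sits, in 1 pair, but the log2 change of Mrpl10 was 0.008 without pair 3 and -0.016 with edgeR on pairs 1, 2 and 4. Whether these genes differed from each other was not tested.

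Values also differed in the S18 family, 3 related proteins that each take a place of their own in the mitochondrial ribosome. Mrps18b had 1111, 684, 686 and 545 units in vehicle and 1018, 630.0, 637 and 487 in acetate, lower in each pair by a similar amount (-0.13, -0.12, -0.11 and -0.16 on the log2 scale). Its log2 change was -0.13 (SE 0.0383, limma adjusted p = 0.064), with 4 of 13 alternatives past the threshold, and 30.5% of its exon bases are shared with an antisense gene. Mrps18c, the family member in the small subunit position of bacterial S18, had the lowest mean units of all members without regard to gene length. It had 127 to 160.3 units among vehicle libraries and 114 to 171 among acetate libraries. Its log2 change was -0.08 (SE 0.084). Mrps18a, in the large subunit, ranged from 709 to 928 units with vehicle and from 672 to 927 with acetate (log2 change 0.04, SE 0.0439). Mrps36 ranged from 290.0 to 364 units with vehicle and from 269 to 362 with acetate (log2 change -0.01, SE 0.0563).

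Levels differed far more between members than between treatments. Per kilobase of merged exons, and over all 8 libraries, the 77 genes spanned 39.5 to 1144 units with a median of 297. Large subunit genes had a median of 376 and small subunit genes one of 214 units per kilobase. Mrpl12 (1144) and Mrpl28 (1131) were highest in the large subunit but stood in that order in 3 of 8 libraries, so their order was not resolved. Mrps21 (946), which has a bacterial counterpart, stood above Mrps23 (545), the next small subunit gene, in 8 of 8 libraries. In vehicle Mrps21 had 938 ± 89.3 and in acetate 954 ± 93.1 units per kilobase (SD, n = 4). Mrpl48 (39.5) and Mrpl33 (55.2) were lowest in the large subunit and Mrps35 (73.2) and Mrps10 (92.0) in the small one.

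Part of this order comes from the length used. Exons outside the principal transcript enter the merged length, whether or not these cells use them. With the length of the principal transcript Mrpl33 had 845 and Mrps10 had 730.2 units per kilobase. At the top, Mrpl13 (2928) and Mrpl42 (2275) then came first, and Mrpl12 was seventh at 1332. Mrpl48 stayed the lowest of the 77, at 75.2. By that length the medians were 552 for the large and 392 for the small subunit, in the same order as before. The log2 change of Mrpl48 was -0.11 (SE 0.056), of Mrpl33 0.09 (SE 0.0583), of Mrps10 -0.09 (SE 0.0381) and of Mrps35 -0.08 (SE 0.0419), none past the threshold. Mrpl28, Mrps21 and Mrps23 had log2 changes of 0.06, 0.02 and -0.03.

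Summed over the members, the mitochondrial ribosome took 0.38, 0.298, 0.317 and 0.257% of vehicle libraries 1 to 4. In acetate libraries 1 to 4 the shares were 0.375, 0.289, 0.302 and 0.239%. The ratio of acetate to vehicle was 0.985, 0.971, 0.955 and 0.931 in the 4 pairs. For the large subunit alone the ratios were 0.991, 0.976, 0.958 and 0.937, and for the small subunit 0.974, 0.96, 0.95 and 0.919. The ratio was below 1 in every pair for both subunits, and lower for the small than for the large subunit in every pair. Sums are weighted towards genes with many reads, such as Mrpl13 and Mrpl12 in the large subunit, so they need not give the order of the medians, and no test was made on them. The mean share was 0.313 ± 0.0515% in vehicle and 0.301 ± 0.056% in acetate (SD, n = 4). The difference of the means was smaller than the spread between libraries of a group. That spread holds the differences between pairs, so it does not measure the change within pairs.

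**Figure D4:**
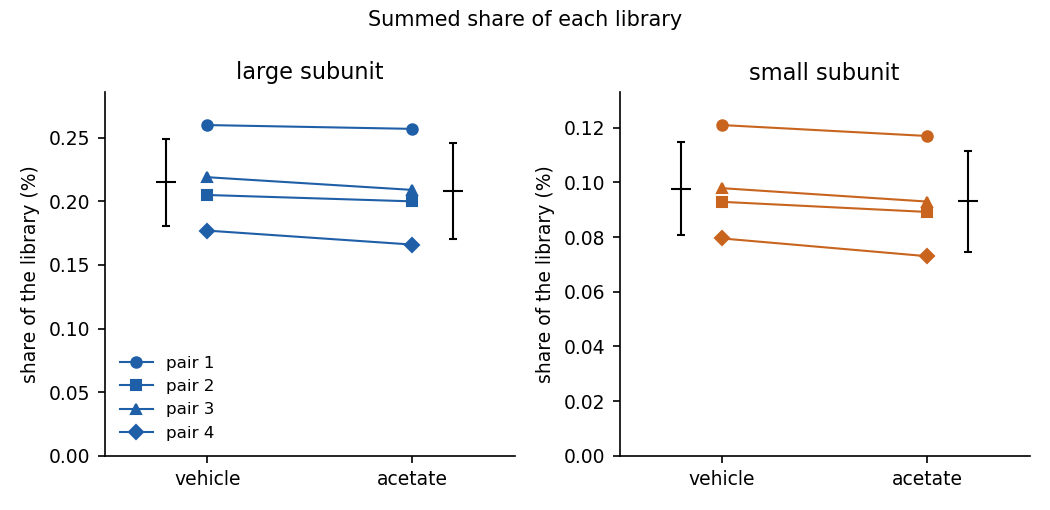
Summed share of each library, in percent, for the 48 large and the 29 small subunit genes, with the libraries of a pair joined and black bars for the group mean ± SD (n = 4). Pair 1 lies highest and pair 4 lowest in both panels, and each line falls from vehicle to acetate by less than the distance between those pairs.

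The pair number, not acetate, held most of the variation of these genes. It accounted for 94.2% of the summed variance of the 77 genes on the log2 scale, treatment for 3.0% and the remainder for 2.77%. In the 9863 genes of similar or higher level the parts were 94.3, 3.82 and 1.9%. Of the 77 genes 71 were higher in pair 1 than the mean of the other pairs, with a median log2 difference of 0.41, and 74 were lower in pair 4, with a median of -0.39. The medians of the 9863 genes were -0.09 and -0.004 in those pairs. What the pairs differed in is not in the labels. The fit without the block called nothing: 0.0% of 20189 genes were called lower, 353 genes had an unadjusted p under 0.05, and the smallest p of a member was 0.284.

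Count tests on the recovered reads, with the same block, gave other numbers of calls. edgeR called 11 members lower (14.3%), against 5.38% of all genes, and 0 higher. DESeq2 called 1 member lower, against 3.83% of 12361 genes with an adjusted p. Median-of-ratios scaling, which sets the median change of all genes to 0.00, gave 8 members lower (10.4%) in limma, against 4.07% of all genes. Under it and under edgeR the median log2 change of the 9863 genes of similar or higher level was -0.02. The share of those genes called lower was not computed for these settings. Leaving out genes with a mean under 10 units gave 5 (6.49%), against 5.82%. The number of single genes called thus depended on the test, while the median change of the members stayed between -0.06 and -0.10.

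The remaining proteins of the mitochondrial ribosome carry other names, and 5 of these were examined. Chchd1, a small subunit protein, had 1196, 997, 1000.2 and 786 units in vehicle and 1071, 811, 937 and 643 in acetate, and was lower in each pair although the groups overlapped. It fell by 0.21 on the log2 scale (SE 0.0431, limma adjusted p = 0.012), more than any gene of the 77. Dap3, a GTP-binding protein of the small subunit, had a log2 change of -0.02, Ptcd3 and Aurkaip1 each one of -0.03, and Gadd45gip1, in the large subunit, one of -0.08, none past the threshold. All 5 were on the negative side, with a median of -0.03 (-0.0347 before rounding).

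Of 15 mitochondrial translation factors measured, 2 fell and 0 rose, against 2.65% and 5.99% of all genes. Guf1, a mitochondrial GTPase related to the bacterial factor LepA, had 976, 1002, 1003 and 956 units in vehicle and 857, 916, 838 and 869.7 in acetate. Its groups did not overlap, and it fell by 0.18 on the log2 scale (SE 0.0378, limma adjusted p = 0.014). Gfm1, the elongation factor that moves the ribosome along the message, fell by 0.15 (limma adjusted p = 0.0228). Tufm, which delivers the aminoacyl-tRNAs, had a log2 change of 0.05 (SE 0.0356). Among 29 genes for assembly of the ribosome and modification of its RNA, Dhx30, an RNA helicase, fell by 0.11 (SE 0.0287, limma adjusted p = 0.0365) and 0 rose, against the same shares of all genes. The medians were -0.06 for the factors and -0.07 for the assembly genes.

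Of 12 regulators of mitochondrial biogenesis, 2 fell and 0 rose, against 2.65% and 5.99% of all genes. The list median was 0.01, and 4 of the 12 were higher in every pair while 2 were lower. At an unadjusted p under 0.05, 3 were higher and 2 lower. Pprc1, a coactivator of the PGC-1 family, had 4541, 2029, 2278 and 1397 units in vehicle and 4176, 1896, 2038 and 1177 in acetate. It fell by 0.16 on the log2 scale (SE 0.0325, limma adjusted p = 0.0126), and Gabpa, the ETS factor whose motif was searched, fell by 0.13 (SE 0.0294, limma adjusted p = 0.0214). The other factors whose motifs were searched, Nrf1 and Yy1, had log2 changes of 0.04 and 0.07, not past the threshold (limma adjusted p = 0.536 and 0.161), and were higher in 4 of 4 pairs. Tfam, Polrmt and Myc had log2 changes of -0.02, 0.09 and 0.02, not past the threshold. Tfam and Polrmt are needed to transcribe mitochondrial DNA, and Myc is known to drive ribosome production. Ppargc1a, which encodes PGC-1α, had 0.763 to 2.44 units in vehicle and 0.785 to 10.1 in acetate, a few reads each.

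Both mitochondrial ribosomal RNAs were higher with acetate in every pair. mt-Rnr1, the RNA of the small subunit, had 5158, 4331, 4597 and 4682 units in vehicle and 7005, 8256, 6919 and 5971 in acetate, and the groups did not overlap. It rose by 0.58 on the log2 scale (SE 0.07, limma adjusted p = 0.000761). mt-Rnr2, the RNA of the large subunit, had 22036, 17546, 18414 and 18921 units in vehicle and 25325, 23659, 19681 and 20978 in acetate, and the groups overlapped. It rose by 0.22 (SE 0.0443, limma adjusted p = 0.0111). The libraries were made from poly-A RNA, which captures these RNAs only in part, so the values do not measure the amount of ribosomal RNA. Of the 13 mitochondrial messenger RNAs, mt-Cytb (-0.19) and mt-Nd4 (-0.14) fell, mt-Nd6 (0.33) and mt-Nd1 (0.11) rose, and the median was -0.001. Of the 13, 6 had a mean of 1.53 to 59.2 units and the other 7 one of at least 1450.1, and over these 7 the median was also -0.001. mt-Nd6 lies on the other DNA strand from the rest, and without a stated strand setting its reads may include antisense RNA.

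**Figure D5:**
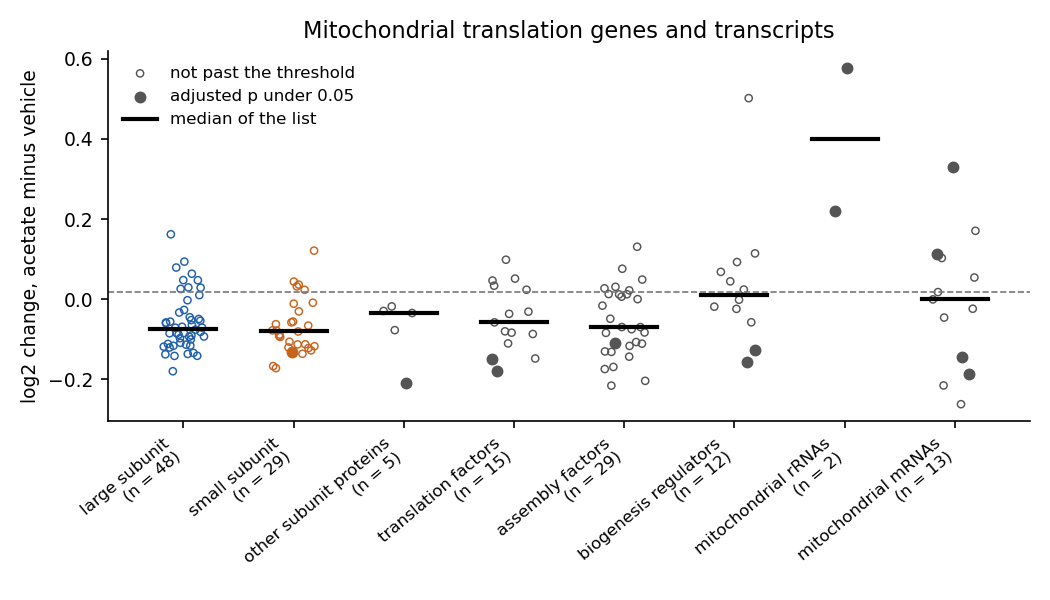
Log2 change from vehicle to acetate for the 77 members by subunit and for 6 lists of related genes and mitochondrial transcripts, each point a gene, filled where the adjusted p was under 0.05. Black bars are list medians, at -0.07 and -0.08 for the subunits and 0.40 for the 2 ribosomal RNAs, and the dashed line is the median of all genes.

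The groups most like the members were also on the negative side in part. Of 80 cytosolic ribosomal protein genes, 76 (95.0%) had a negative change, with a median of -0.06, 1 called lower and 18 (22.5%) lower in 4 of 4 pairs. Their pair medians were 0.01, -0.09, -0.01 and -0.14, so that pairs 1 and 3 lay near 0. Of 78 nuclear genes for respiratory chain subunits, 50 (64.1%) had a negative change, with a median of -0.03, 1 called lower, 3 called higher and 16 (20.5%) lower in 4 of 4 pairs. Of all genes, 45.0% had a negative change, 2.65% were called lower, 5.99% were called higher and 11.4% were lower in 4 of 4 pairs. Of the 9863 genes of similar or higher level, 50.4% had a negative change and 18.6% were lower in 4 of 4 pairs. The members thus had the largest share lower in 4 of 4 pairs of these 3 groups. The difference between groups was not tested.

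A first promoter window, from 250 bases before to 50 after the start, was found in RefSeq for 68 of the 77 members. The NRF1 motif stood in 20 (29.4%), the ETS motif in 24 (35.3%) and the YY1 motif in 13 (19.1%). In the windows of 10707 protein-coding genes of the table the shares were 16.6, 17.4 and 7.13%, and in all 27025 windows 8.42, 9.12 and 6.48%. The median GC content was 58.2% in members and 60.7% in the genes of the table. Large subunit genes had the NRF1 motif in 14 of 42 windows and the ETS motif in 13, small subunit genes in 6 and 11 of 26. Of the 26 members lower in 4 of 4 pairs that had a window, 8 had the NRF1 motif (30.8%) and 6 the ETS motif (23.1%), and of the 42 others 12 (28.6%) and 18 (42.9%).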

How the data were processed

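RNA was sequenced from 8 libraries, 4 vehicle and 4 acetate. Reads were aligned by the authors to the transcriptome of mouse build GRCm38 (mm10) with STAR, and the submitters' processing notes also name HTSeq; versions and the strand setting are not given in the sources used here. The deposited values are a signal that the authors scaled to the library total, with genes kept if seen in enough libraries. In each library 100% of values were whole multiples of 1 read (tolerance 0.1 read), so reads could be recovered (19.9 M to 29.31 M a library). No libraries had identical values.

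GENCODE M21 gave a symbol for 20004 of 20189 identifiers. Of 78 protein-coding symbols with the pattern, Mrpl53 was not analysed here. Reads may be shared with 4 pseudogenes of members and, in 32 members, with a gene over the same exon bases (27 with one on the opposite strand, 8 over more than 20% of the exon length).

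The main fit used limma 3.58.1 in R 4.3.3 on log2(value + 1), with the replicate number as a block and a mean-variance trend. P-values were two-sided, adjusted by Benjamini-Hochberg over all 20189 genes and read at 0.05. All log2 changes are on that scale. The numbers pair the libraries, since both share a label code and deviated together: over 18188 genes, the correlation with the same-numbered library was 0.814, 0.273, 0.201 and 0.691. The study's own ranking was unpaired. Alternatives were pseudocounts of 0.1 and 5, a filter on a mean of 10 units, median-of-ratios and quantile scaling, no block, edgeR 4.0.16 and DESeq2 1.42.0 on recovered reads, each pair left out, and subunits by structure. edgeR without pair 3, the other exon length and counts over pairs were added after seeing the data.

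Members and lists were chosen with earlier results of these data known. Named members were up to 8 of the largest changes past the threshold each way or, with fewer than 3, the 3 of smallest p. Added were the 2 highest and 2 lowest levels of each subunit, the S18 and stalk proteins and Mrps36. Other genes named were the ribosomal RNAs, 5 further ribosomal proteins, Tufm, Tfam, Polrmt, Ppargc1a, Myc and the largest called change of each list. Mrpl13, Mrpl42, Mrpl45, Gfm1, Nrf1, Yy1, Gabpa, Cdh1, Krt8, Krt18, Epcam, mt-Nd1, mt-Nd4 and mt-Cytb were named after their values were seen. The promoter of Mrpl14, which runs through annotated exons, is not shown.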

Additional observations from a re-analysis of the deposited data

Results flagged for a closer look

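In 2 of 82 groups of 4 libraries examined, 1 library stood apart from the other 3 by more than Dixon's 95% limit (the gap to the nearest value over the range); chance gives about 1 in 20. Mrpl18 had 2020.1 units in vehicle library 1 and 1249 to 1345 in the other vehicle libraries, a gap of 0.876 of the range; its acetate partner in pair 1 was high as well, at 2077 units. Ppargc1a had 10.1 units in acetate library 4 and 0.785 to 1.89 in the other acetate libraries, a gap of 0.881, at a level of few reads.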

How the results depend on the processing

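The number of members called lower, 1 in limma with the block, was 11 with edgeR, 8 with median-of-ratios scaling, 5 with the filter, 3 with quantile scaling, and 0 with a pseudocount of 0.1, with no replicate block and with edgeR on replicates 1, 2 and 4. Leaving out each pair gave 0 to 6, the 6 without pair 1 and 0 without pair 2, 3 or 4. The filter called 1 member higher. Large subunit genes called lower, 0 in limma with the block, were 6 with edgeR, 4 with median-of-ratios scaling, 1 with the filter and 1 with DESeq2, and 0 to 2 when each pair was left out. Small subunit genes called lower, 1 in limma with the block, were 5 with edgeR, 4 with median-of-ratios scaling, 4 with the filter, 3 with quantile scaling, and 0 with DESeq2, a pseudocount of 0.1, no replicate block or edgeR on replicates 1, 2 and 4; leaving out each pair gave 0 to 4. The filter tests fewer genes; for the other settings the cause was not tested. The median log2 change kept its sign under every setting, at -0.06 to -0.10 for the members, -0.065 to -0.093 for the large and -0.058 to -0.104 for the small subunit. The count of members lower in every pair was 41 with median-of-ratios scaling and 32 with quantile scaling. The same held for 14.8% and 14.4% of all genes, and for 25.2% and 20.8% of the 9863 genes of similar or higher level. With a pair left out the count was 33 to 46, where it cannot be below 32. It was then 15.1 to 17.6% of all genes and 22.2 to 25.4% of the 9863 genes. Median-of-ratios scaling moved the median log2 change of the 9863 genes from -0.001 to -0.02.

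Among named genes, the direction turned in 7 values. With edgeR on replicates 1, 2 and 4, Mrps21 had a log2 change of -0.023, Mrps18a one of -0.024 and Mrpl10 one of -0.016. With each pair left out, Mrps36 ran from -0.052 to 0.021 (above 0 without pair 4), Tfam from -0.05 to 0.007 (above 0 without pair 3 and, at 0.003, without pair 4) and Myc from -0.023 (without pair 1) to 0.066. Chchd1 passed under 10 of 13 alternatives, Guf1 under 9, Pprc1 under 10, Dhx30 under 7, mt-Rnr1 under 12 and mt-Rnr2 under 10; none passed with no replicate block.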

Other observations

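Members with longer merged exons were more often lower in 4 of 4 pairs: 17 of the 26 longest (3332 to 8631 bases), 10 of the 25 in the middle and 5 of the 26 shortest (607 to 1667 bases). Among all protein-coding genes of similar or higher level, the same length ranges held 18.8%, 18.2% and 16.6%. The split was made after the values were seen and was not tested.

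Of the 77 members 43 (55.8%) had the vehicle pairs in the order of the summed share that they make up (pair 1 highest, then 3, 2 and 4), against 18.1% of the 9863 genes of similar or higher level. Of the 12 biogenesis regulators 6 had that order, among them Myc (6783, 3782, 4537 and 2715 units in vehicle libraries 1 to 4) and Pprc1 (4541, 2029, 2278 and 1397). The order was chosen after the values were seen, and with 4 pairs no correlation was computed.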
